A study of Homo sapiens with 12 samples.

Results

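The genes described here are the integrins, cadherins and other cell adhesion receptors of IMR90 fibroblasts, a human lung fibroblast line. They are 35 genes listed by symbol and kept if their value was above 0 in at least 2 of the 12 libraries. All 35 met that rule, among 27106 genes of the table, and the rule itself compares no groups. The list of symbols, however, was made with earlier results of these data known. The study asked how oncogene-induced senescence differs when the interleukin-1 receptor is depleted. Every culture carried hTERT, the catalytic subunit of telomerase, and RasERT2, an oncogenic Ras made dependent on tamoxifen by a fused receptor domain. The knockdown cells expressed a short hairpin RNA that targets the interleukin-1 receptor (shIL1R, labelled IL1R KD). Their controls expressed a scramble hairpin RNA (shScr, labelled WT). Doxycycline at 0.5 ug/ml induced the hairpin in both, and the cells then received 200 nM tamoxifen or ethanol as its control. Poly(A) RNA was collected at day 0 (growing), day 4 (entering senescence) and day 10 (senescent) of Ras induction, with 2 libraries for each hairpin and day. The labels do not say which of these groups received ethanol. They also do not say whether the 2 libraries of a group came from separate cultures, or whether those of shIL1R carry different hairpins. The p-values below therefore measure the spread between these samples, which may be technical. Ras was switched on in a telomerase-carrying line with the hairpin already induced, so the groups hold no cells that are free of doxycycline or of the transgenes.

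Integrins are pairs of an alpha and a beta chain that tie the cytoskeleton to the extracellular matrix, and the alpha chain largely sets the ligand. Those described here fall into receptors for collagen, for laminin, for ligands with an arginine-glycine-aspartate (RGD) motif such as fibronectin and vitronectin, and a few that bind other cells. Cadherins hold like cells together through calcium-dependent contacts and are linked to actin by catenins. Adhesion receptors of the immunoglobulin family, such as ICAM1 and VCAM1, are ligands for integrins of leukocytes, and interleukin-1 is known to induce both through the transcription factor NF-kB. CD44 is the main receptor for hyaluronan.

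IL1R1, which encodes the targeted receptor, gave 731 and 378 normalized counts on day 0, 272 and 86.4 on day 4, and 295 and 279.9 on day 10 in shIL1R libraries. IL1R1 in shScr libraries gave 1509 and 1552 on day 0, 1546 and 1423 on day 4, and 1580.1 and 1239.6 on day 10. Every shIL1R library was below every shScr library for IL1R1, and the log2 difference was called at day 4 (−3.27 ± 0.42, limma adjusted p = 0.0205) and day 10 (−2.28 ± 0.42, limma adjusted p = 0.0102). It was not called at day 0 (−1.54 ± 0.42, limma adjusted p = 0.281). A normalized count is the number of reads of a gene divided by the size factor of its library, and 24140324 to 30127727 reads per library could be recovered. The 2 shIL1R libraries of day 10 stood farthest apart of any group, at 53.8 in chi-square over its degrees of freedom, against 7.79 in the closest group, shScr day 0. RNA45S5, a ribosomal precursor, made up 3.41% of normalized counts in shScr day 4 replicate 2 and 1.77 to 1.81% in the other day 4 libraries. It made up 2.51% or more in each day 10 library, against 1.47% or less in each day 0 library, and its part in the changes over days was not tested. The 10 fibroblast markers summed to between 317600 and 495000 normalized counts in the 12 libraries, and none was at 0. At day 10 over day 0, 6 of the 10 fell and 2 rose in shIL1R cells (median log2 −0.59), and 6 fell and 1 rose in shScr cells (median log2 −0.66), and their part in the falls of members was not tested. Among all tested genes 30.3% fell and 30.0% rose in shIL1R cells, and 31.3% fell and 32.5% rose in shScr cells. CDH5, which defines endothelium, and KRT5, which marks basal epithelium, were at 0 in all libraries, and PTPRC, the pan-leukocyte marker, did not exceed 3.04. Other listed markers of these cell types were present. In single libraries the 7 endothelial markers summed to between 1220 and 3282 normalized counts and the 7 epithelial markers to between 2136 and 3323. The 7 leukocyte markers summed to between 2941 and 9116.

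Of the 35 members 30 reached 10 or more normalized counts in 2 or more libraries and were tested with limma on log2(normalized count + 1), in 1 fit over 13924 genes. The log2 changes below are on that scale, which understates changes of low genes, and ± gives the standard error. A gene was called where its p-value, adjusted after Benjamini and Hochberg over all tested genes, was below 0.05. A difference between the hairpins is shIL1R over shScr. In shIL1R cells 13 of 30 members rose and 9 fell by day 10 relative to day 0, against 30.0% of all tested genes higher and 30.3% lower. In shScr cells 14 rose and 10 fell over the same days, against 32.5% higher and 31.3% lower. By day 4 relative to day 0, 10 members were higher and 7 lower in shIL1R cells (20.1% and 20.3% of all genes), and 11 were higher and 9 lower in shScr cells (19.4% and 18.9%). At day 10 compared with day 4, 7 were higher and 9 lower in shScr cells, against 21.7% and 22.4%. Without shIL1R day 0 replicate 2 the lower members in shIL1R cells at day 4 were 4 in place of 7. The median log2 change of the 30 members at day 10 over day 0 was 0.325 in shIL1R cells and 0.509 in shScr cells, while the medians of all tested genes were 0.0124 and 0.00566. The 2 sets of counts are not independent of the genotype comparisons, which use the same libraries. The members were chosen with earlier results of these data known, so their counts and medians beside those of all genes are a description and not a test. RNA here is from whole cultures, so fewer cells that express a gene and less RNA of it per cell cannot be told apart.

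Between the hairpins limma called 0 of 30 members at day 0, where 0.0287% of all genes were higher and 0.0359% lower in shIL1R cells. At an unadjusted p below 0.05 there were 8 members, and the share of all genes at an unadjusted p is not given here. Of the members edgeR called 0 (9 of all genes) and DESeq2 called 4 (138 of all genes). At day 4 limma again called 0 of 30 (0.0431% of all genes were higher and 0.237% lower), with 12 at an unadjusted p below 0.05. There edgeR called 0 members (43 of all genes) and DESeq2 called 2 (476 of all genes). At day 10 ITGA10, CDH6, ITGA8 and ITGA4 were higher in shIL1R cells than in shScr cells and ICAM1, L1CAM, ITGB1, ITGAV and ITGA5 were lower. These are 4 higher and 5 lower members, against 4.37% and 4.85% of all genes. The change from day 0 to day 10 was itself compared between the hairpins, as the log2 change in shIL1R cells minus that in shScr cells. That difference was positive for ITGA10, CDH6 and ITGA4 and negative for ICAM1, ITGB3 and CD44. It was called for 3 members in each direction, against 0.876% and 1.54% of all genes. HRAS, a gene of the Ras family, gave 37518 and 25280.1 normalized counts in shIL1R cells and 51791 and 50789 in shScr cells on day 10, a log2 difference of −0.74 ± 0.17 (limma adjusted p = 0.0257). On day 4 it gave 19278 and 15523 in shIL1R cells and 29774 and 23750 in shScr cells (log2 −0.62 ± 0.17, limma adjusted p = 0.117). The day 0 difference of HRAS was log2 −0.06 ± 0.17 (limma adjusted p = 0.964). The part of HRAS in the differences between the hairpins was not tested. Whether reads of the Ras transgene are among the HRAS counts was not tested either. The calls of members at day 10 rest on few libraries. Without shScr day 10 replicate 2 the day 10 comparison called 1 member (CDH6), and without shIL1R day 10 replicate 1 it called 14. The difference of the changes was called for 1 member without either replicate 2 of day 0 or shScr day 10 replicate 2, for 2 without shScr day 0 replicate 1, and for 3 without shIL1R day 0 replicate 1, any of the 4 day 4 libraries or shScr day 10 replicate 1.

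**Figure D1:**
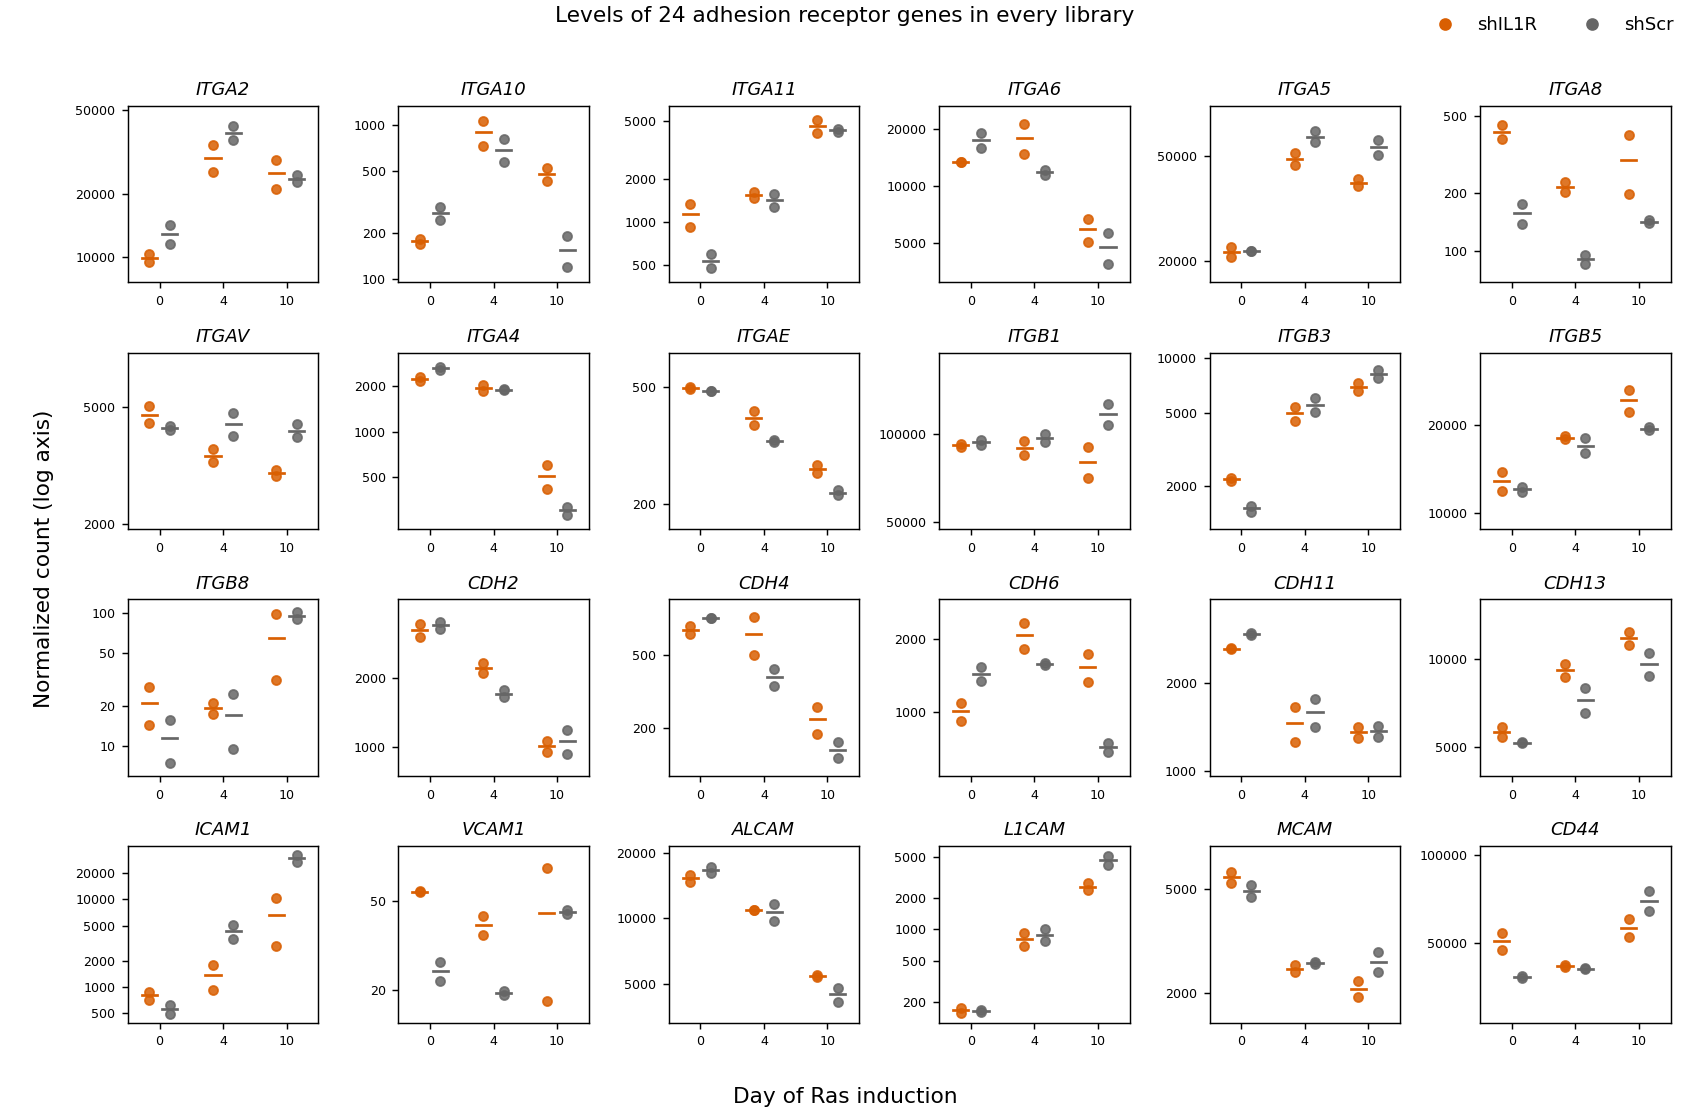
Normalized counts (log axes) of 24 adhesion receptor genes at days 0, 4 and 10 of Ras induction; each point is 1 library, shIL1R in orange to the left and shScr in grey to the right, and bars are means of 2 libraries. ICAM1 at day 10 lay at 2921 and 10411 in shIL1R cells and at 26921 and 32518 in shScr cells, and CDH6 at 1326 and 1736 in shIL1R cells and at 747 and 682 in shScr cells.

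Promoter sequence is shown for the members whose change by day 10 differed between the hairpins and for VCAM1. Like ICAM1, VCAM1 is a textbook NF-kB target. It was not called in the main run, but its adjusted p was below 0.05 in some alternative runs. Of the 35 members 24 had a promoter in the RefSeq table of build GRCh38.p14, and 4 of the 6 members with a differing change were among them. The files themselves were aligned to hg19, so the positions apply to GRCh38.p14 alone. Each line holds the 250 bases before the annotated start, in the direction of the gene, with capitals where the bases match GGNNNTTCC, a form of the NF-kB site, on either strand.
ICAM1: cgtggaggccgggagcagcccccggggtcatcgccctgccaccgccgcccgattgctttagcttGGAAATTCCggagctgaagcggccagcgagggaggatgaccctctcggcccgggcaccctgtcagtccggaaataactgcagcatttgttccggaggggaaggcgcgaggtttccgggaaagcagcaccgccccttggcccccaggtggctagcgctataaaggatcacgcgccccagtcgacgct
VCAM1: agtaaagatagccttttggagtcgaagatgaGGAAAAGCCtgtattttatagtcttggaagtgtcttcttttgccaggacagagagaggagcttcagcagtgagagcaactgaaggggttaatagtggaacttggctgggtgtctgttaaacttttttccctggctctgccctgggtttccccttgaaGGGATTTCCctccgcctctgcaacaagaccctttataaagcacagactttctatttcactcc
CD44: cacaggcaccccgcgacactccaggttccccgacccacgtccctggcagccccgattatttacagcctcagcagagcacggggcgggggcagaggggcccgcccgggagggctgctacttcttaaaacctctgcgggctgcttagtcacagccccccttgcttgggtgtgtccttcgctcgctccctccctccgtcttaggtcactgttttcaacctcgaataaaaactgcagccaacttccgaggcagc
ITGA4: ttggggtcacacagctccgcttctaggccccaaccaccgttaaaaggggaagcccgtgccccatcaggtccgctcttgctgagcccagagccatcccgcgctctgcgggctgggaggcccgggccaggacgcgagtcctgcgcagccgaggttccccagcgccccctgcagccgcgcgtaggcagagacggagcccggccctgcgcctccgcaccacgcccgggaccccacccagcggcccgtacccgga
ITGA10: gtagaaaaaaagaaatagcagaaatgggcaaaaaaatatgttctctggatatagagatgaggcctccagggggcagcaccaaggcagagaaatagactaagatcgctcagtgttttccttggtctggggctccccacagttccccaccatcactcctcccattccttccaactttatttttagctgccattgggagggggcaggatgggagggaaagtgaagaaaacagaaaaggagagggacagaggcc
These windows lie at chr19:10270870-10271119 (plus strand), chr1:100719492-100719741 (plus strand), chr11:35138921-35139170 (plus strand), chr2:181457136-181457385 (plus strand) and chr1:145910051-145910300 (minus strand). The ICAM1 window held GGAAATTCC 186 to 178 bases before the start, which matches on both strands. The VCAM1 window held 2 matches, GGAAAAGCC at 219 to 211 bases (a match on the opposite strand) and GGGATTTCC at 62 to 54 bases before the start. The windows of CD44, ITGA4 and ITGA10 held no match to these letters. GGNNNTTCC occurred in 7 of the 24 member promoters (CDH2, CDH4, ICAM1, ITGA1, ITGA11, ITGA5 and VCAM1), and in 6012 of all 35116 promoters of the same length, 17.1%. TGANTCA, a form of the AP-1 site that does not overlap those letters, occurred in 1 of 24 (CDH2) and in 2308 of all promoters, 6.57%. A match is a description of the sequence and not evidence of binding.

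The 4 alpha chains that pair with ITGB1 to bind collagen were all tested, and in shIL1R cells ITGA2, ITGA10 and ITGA11 were higher at day 10 than at day 0. In shScr cells ITGA1, ITGA2 and ITGA11 were higher and ITGA10 lower at day 10 than at day 0, and ITGA10 was the member whose change differed most in the positive direction between the hairpins. For ITGA10 the shIL1R libraries gave 183 and 169.6 normalized counts on day 0, 1061 and 726 on day 4, and 436 and 526 on day 10. ITGA10 in shScr libraries gave 241 and 295 on day 0, 807 and 575 on day 4, and 191 and 119.5 on day 10. At day 4 ITGA10 was above day 0 in both genotypes, and at day 10 both shIL1R libraries were above both shScr libraries. The log2 change of ITGA10 at day 10 over day 0 was 1.44 ± 0.25 (limma adjusted p = 0.00048) in shIL1R cells and −0.81 ± 0.25 (limma adjusted p = 0.0142) in shScr cells. On day 4 over day 0 it was log2 2.31 ± 0.25 (limma adjusted p = 6.58e-05) in shIL1R cells and log2 1.35 ± 0.25 (limma adjusted p = 0.00157) in shScr cells, and in shScr cells ITGA10 was lower at day 10 than at day 4 (log2 −2.16 ± 0.25, limma adjusted p = 7.68e-05). The 2 day 10 changes differed by log2 2.25 ± 0.35 (limma adjusted p = 0.0127), and shIL1R cells exceeded shScr cells at day 10 by log2 1.66 ± 0.25 (limma adjusted p = 0.00473). The difference of the changes missed 0.05 without shIL1R day 0 replicate 2 (0.077), shScr day 0 replicate 2 (0.0734) or shScr day 10 replicate 2 (0.0559). The level difference at day 10 missed it without shScr day 10 replicate 2 (log2 1.32, limma adjusted p = 0.0556). The fall in shScr cells missed it without shScr day 0 replicate 2 (log2 −0.67, limma adjusted p = 0.0997) or shScr day 10 replicate 2 (−0.48, 0.149).

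ITGA11 binds fibrillar collagen and is typical of activated fibroblasts. For ITGA11 the shIL1R libraries gave 920.5 and 1335 normalized counts on day 0, 1470.2 and 1601 on day 4, and 4155 and 5097 on day 10. ITGA11 in shScr libraries gave 603 and 476 on day 0, 1573 and 1266 on day 4, and 4424 and 4198 on day 10. Its libraries at day 10 were above every day 0 and day 4 library in both genotypes, and those of the 2 hairpins overlapped at day 10. At day 0 both shIL1R libraries were above both shScr libraries, a log2 difference of 1.05 ± 0.18 (limma adjusted p = 0.068). By day 10 relative to day 0 ITGA11 rose by log2 2.05 ± 0.18 (limma adjusted p = 3.17e-06) in shIL1R cells and by log2 3.01 ± 0.18 (limma adjusted p = 1.56e-07) in shScr cells, and the difference of these changes was not called (log2 −0.95 ± 0.25, limma adjusted p = 0.0774). ITGA2 binds collagen and laminin. For ITGA2 the shIL1R libraries gave 10319 and 9469 normalized counts on day 0, 33805 and 25391 on day 4, and 28825 and 21059 on day 10. ITGA2 in shScr libraries gave 11469 and 14212 on day 0, 41606 and 35939 on day 4, and 22688 and 24371 on day 10. Its values were above day 0 at days 4 and 10 in both genotypes, and in shScr cells both day 10 libraries were below both day 4 libraries. The log2 change of ITGA2 at day 4 over day 0 was 1.57 ± 0.17 (limma adjusted p = 7.14e-05) in shIL1R cells and 1.60 ± 0.17 (limma adjusted p = 5.3e-05) in shScr cells, and at day 10 over day 0 it was 1.32 ± 0.17 (limma adjusted p = 5.93e-05) in shIL1R cells and 0.88 ± 0.17 (limma adjusted p = 0.000938) in shScr cells. The lower level at day 10 than at day 4 in shScr cells (log2 −0.72 ± 0.17, limma adjusted p = 0.0062) missed 0.05 without shScr day 4 replicate 1 (limma adjusted p = 0.0508). ITGA1, the other collagen and laminin receptor, ranged between 3754 and 6682 normalized counts over the 12 libraries. It rose at day 10 in shScr cells (log2 0.54 ± 0.19, limma adjusted p = 0.03), and its change in shIL1R cells was log2 −0.06 ± 0.19 (limma adjusted p = 0.798). The shScr rise of ITGA1 missed 0.05 without shScr day 0 replicate 2 (0.172), shScr day 10 replicate 1 (0.0591) or shScr day 10 replicate 2 (0.141), as limma adjusted p-values.

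Of the 3 laminin-binding alpha chains, ITGA3 was higher and ITGA6 lower at day 10 than at day 0 in both genotypes, and ITGA7 was not called in any comparison (16.2 to 51.6 normalized counts). ITGA3 rose by log2 0.49 ± 0.12 (limma adjusted p = 0.00504) in shIL1R cells and by log2 0.49 ± 0.12 (limma adjusted p = 0.00506) in shScr cells at day 10. Without shIL1R day 10 replicate 1 the ITGA3 change in shIL1R cells was log2 0.28 (limma adjusted p = 0.029), and under quantile normalization neither call held (0.0772 in shIL1R cells and 0.0879 in shScr cells). ITGA6 pairs with ITGB1 or ITGB4. For ITGA6 the shIL1R libraries gave 13356 and 13462 normalized counts on day 0, 14718 and 21214 on day 4, and 5078 and 6718 on day 10. ITGA6 in shScr libraries gave 15961 and 19158 on day 0, 11476 and 12228 on day 4, and 3868 and 5662 on day 10. All day 10 libraries of ITGA6 were below all libraries of the earlier days, and the 2 hairpins overlapped at day 10. At day 10 over day 0 ITGA6 changed by log2 −1.20 ± 0.20 (limma adjusted p = 0.000417) in shIL1R cells and by log2 −1.90 ± 0.20 (limma adjusted p = 1.16e-05) in shScr cells, and the difference of these changes was not called (log2 0.70 ± 0.29, limma adjusted p = 0.218). At day 4 over day 0 the change was log2 0.40 ± 0.20 (limma adjusted p = 0.143) in shIL1R cells and log2 −0.56 ± 0.20 (limma adjusted p = 0.0493) in shScr cells. The shScr call at day 4 missed 0.05 without any 1 of the 4 day 0 libraries or either shScr day 4 library, with limma adjusted p-values from 0.0683 to 0.254.

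Of the 3 alpha chains that read RGD ligands, ITGA5 and ITGAV were lower and ITGA8 was higher in shIL1R cells than in shScr cells at day 10. Of all tested genes 4.37% were higher and 4.85% lower there. ITGA5, the fibronectin receptor chain, was higher at days 4 and 10 than at day 0 in both genotypes. For ITGA5 the shIL1R libraries gave 20672 and 22637 normalized counts on day 0, 51574 and 46185 on day 4, and 40925 and 38418 on day 10. ITGA5 in shScr libraries gave 21771 and 21711 on day 0, 62264 and 56500.3 on day 4, and 50471 and 57879 on day 10. The 2 genotypes overlapped at day 0, and at days 4 and 10 both shIL1R libraries were below both shScr libraries. ITGA5 rose at day 10 over day 0 by log2 0.87 ± 0.10 (limma adjusted p = 2.84e-05) in shIL1R cells and by log2 1.31 ± 0.10 (limma adjusted p = 1.05e-06) in shScr cells, and by day 4 over day 0 by log2 1.17 ± 0.10 in shIL1R cells and log2 1.45 ± 0.10 in shScr cells. At day 10 shIL1R cells were lower than shScr cells, at a log2 difference of −0.45 ± 0.10 (limma adjusted p = 0.025), while the difference of the changes was not called (−0.44 ± 0.15, limma adjusted p = 0.14). The day 10 difference missed 0.05 without shScr day 10 replicate 2 (limma adjusted p = 0.208) or shIL1R day 10 replicate 2 (0.0808).

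ITGAV pairs with several beta chains, ITGB1, ITGB3, ITGB5 and ITGB8 among them, and binds vitronectin and the latent form of TGF-beta. For ITGAV the shIL1R libraries gave 4412 and 5044 normalized counts on day 0, 3595 and 3254 on day 4, and 3052 and 2927 on day 10. ITGAV in shScr libraries gave 4185 and 4311 on day 0, 4777 and 3991 on day 4, and 3952 and 4373 on day 10. The shIL1R libraries were above the shScr libraries at day 0 and below them at days 4 and 10. ITGAV fell in shIL1R cells at day 4 (log2 −0.46 ± 0.10, limma adjusted p = 0.00515) and day 10 (log2 −0.66 ± 0.10, limma adjusted p = 0.00026) relative to day 0, while the shScr change at day 10 was log2 −0.03 ± 0.10 (limma adjusted p = 0.81). At day 10 shIL1R cells were below shScr cells, at a log2 difference of −0.48 ± 0.10 (limma adjusted p = 0.0209), and the difference of the changes was −0.63 ± 0.15 (limma adjusted p = 0.0533). The day 4 fall missed 0.05 without shIL1R day 0 replicate 2 (limma adjusted p = 0.0576), and the day 10 difference missed it without shScr day 10 replicate 2 (0.183) or shIL1R day 10 replicate 2 (0.0647). ITGA8 is a receptor for nephronectin and fibronectin. For ITGA8 the shIL1R libraries gave 379 and 448 normalized counts on day 0, 228 and 202 on day 4, and 197 and 396 on day 10. ITGA8 in shScr libraries gave 175 and 138 on day 0, 95.1 and 86.1 on day 4, and 144 and 139.8 on day 10. Both shIL1R libraries were above both shScr libraries on every day, day 0 included. The log2 difference between hairpins was 1.40 ± 0.27 (limma adjusted p = 0.102) at day 0, 1.23 ± 0.27 (limma adjusted p = 0.072) at day 4 and 0.97 ± 0.27 (limma adjusted p = 0.0455) at day 10. ITGA8 fell at day 4 relative to day 0 in shIL1R cells (log2 −0.94 ± 0.27, limma adjusted p = 0.0163) and in shScr cells (log2 −0.77 ± 0.27, limma adjusted p = 0.04). The day 10 difference missed 0.05 without any 1 of 11 libraries, all but shIL1R day 10 replicate 1, with limma adjusted p-values from 0.0602 to 0.237 and a log2 difference of 0.47 without shIL1R day 10 replicate 2. Without shIL1R day 10 replicate 1 it was 1.48. The shIL1R fall at day 4 missed 0.05 without shIL1R day 0 replicate 2 (limma adjusted p = 0.104) or shIL1R day 4 replicate 2 (0.0866), and the shScr fall missed it without any 1 of the 10 libraries other than those of shIL1R day 10 (0.0523 to 0.22). The replicate block, a fit with the replicate number as a term, gave ITGA8 at day 10 a limma adjusted p of 0.0531.

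The other alpha chains were ITGA4, ITGAE and ITGA9. ITGA4 pairs with ITGB1 or ITGB7 and binds VCAM1 and fibronectin. For ITGA4 the shIL1R libraries gave 2298 and 2141 normalized counts on day 0, 2020.1 and 1860.5 on day 4, and 415 and 599 on day 10. ITGA4 in shScr libraries gave 2563 and 2649.5 on day 0, 1909 and 1876 on day 4, and 283 and 319 on day 10. All day 10 libraries were below all libraries of the earlier days, and at day 10 both shIL1R libraries were above both shScr libraries. ITGA4 fell at day 10 over day 0, with a log2 change of −2.15 ± 0.14 (limma adjusted p = 4.95e-07) in shIL1R cells and −3.11 ± 0.14 (limma adjusted p = 2.7e-08) in shScr cells. These changes differed by log2 0.96 ± 0.20 (limma adjusted p = 0.0359), and the day 10 level differed by log2 0.73 ± 0.14 (limma adjusted p = 0.0135) between shIL1R and shScr cells. The difference of the changes missed 0.05 without any 1 of the 10 libraries other than those of shIL1R day 10 (limma adjusted p from 0.0518 to 0.165). The level difference missed it without shScr day 10 replicate 1 (0.0575) or shScr day 10 replicate 2 (0.0683), and it was 0.46 without shIL1R day 10 replicate 2 (limma adjusted p = 0.0325). Relative to day 0, ITGA4 changed at day 4 by log2 −0.19 ± 0.14 (limma adjusted p = 0.305) in shIL1R cells and by log2 −0.46 ± 0.14 (limma adjusted p = 0.0258) in shScr cells, and the shScr call missed 0.05 without any 1 of the 4 shScr libraries of days 0 and 4 (0.0873 to 0.121).

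ITGAE pairs with ITGB7 and binds E-cadherin, whose gene CDH1 stood at 0 to 2.03 normalized counts here. For ITGAE the shIL1R libraries gave 494 and 501 normalized counts on day 0, 415 and 371 on day 4, and 254 and 272 on day 10. ITGAE in shScr libraries gave 486 and 487 on day 0, 326 and 329 on day 4, and 215 and 223 on day 10. It was lower on each later day in both genotypes, and at days 4 and 10 both shIL1R libraries were above both shScr libraries. ITGAE fell at day 10 over day 0, with a log2 change of −0.92 ± 0.11 (limma adjusted p = 2.66e-05) in shIL1R cells and −1.15 ± 0.11 (limma adjusted p = 3.94e-06) in shScr cells, and the day 10 difference between hairpins was not called (0.26 ± 0.11, limma adjusted p = 0.139). Its fall at day 4 in shIL1R cells (log2 −0.34 ± 0.11, limma adjusted p = 0.0263) missed 0.05 without shIL1R day 0 replicate 1 (0.0967), shIL1R day 0 replicate 2 (0.116) or shIL1R day 4 replicate 2 (0.155), as limma adjusted p-values. ITGA9, which binds tenascin-C and VCAM1, had 3.54 to 9.88 normalized counts and was not tested.

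Among the 6 beta chains tested, 3 rose at day 10 over day 0 in shIL1R cells, ITGB3, ITGB5 and ITGB7, and 4 rose in shScr cells, the same ones and ITGB8, while none fell. Of all tested genes 30.0% were higher and 30.3% lower in shIL1R cells, and 32.5% higher and 31.3% lower in shScr cells. ITGB3 forms a vitronectin receptor with ITGAV. For ITGB3 the shIL1R libraries gave 2135 and 2206 normalized counts on day 0, 5425 and 4546 on day 4, and 7308 and 6616 on day 10. ITGB3 in shScr libraries gave 1559 and 1445 on day 0, 6032 and 5072 on day 4, and 8564 and 7809 on day 10. The shIL1R libraries were above the shScr libraries at day 0 and below them at day 10, and overlapped them at day 4. ITGB3 rose at day 10 over day 0 by log2 1.68 ± 0.11 (limma adjusted p = 4.51e-07) in shIL1R cells and by log2 2.44 ± 0.11 (limma adjusted p = 2.44e-08) in shScr cells. These changes differed by log2 −0.77 ± 0.16 (limma adjusted p = 0.0321), while the levels were not called apart at day 0 (log2 0.53 ± 0.11, limma adjusted p = 0.127) or at day 10 (log2 −0.23 ± 0.11, limma adjusted p = 0.199). The difference of the changes missed 0.05 without any 1 of the 4 day 0 libraries or the 2 shScr day 10 libraries (limma adjusted p from 0.0754 to 0.156). Already at day 4 ITGB3 rose over day 0 by log2 1.19 ± 0.11 in shIL1R cells and by log2 1.88 ± 0.11 in shScr cells (limma adjusted p = 2.72e-05 and 1.22e-06).

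ITGB1 is the partner of most alpha chains described above. For ITGB1 the shIL1R libraries gave 92538 and 90317 normalized counts on day 0, 94622 and 84893 on day 4, and 89836 and 70495 on day 10. ITGB1 in shScr libraries gave 91897 and 95046 on day 0, 99565 and 94165 on day 4, and 107093 and 126851 on day 10. At day 10 both shIL1R libraries were below both shScr libraries, a log2 difference of −0.55 ± 0.13 (limma adjusted p = 0.0297), while the genotypes overlapped at days 0 and 4. The change of ITGB1 at day 10 over day 0 was not called in shIL1R cells (log2 −0.20 ± 0.13, limma adjusted p = 0.214) or in shScr cells (log2 0.32 ± 0.13, limma adjusted p = 0.0556), and the shScr change was −0.50 under quantile normalization (limma adjusted p = 0.000287). The day 10 difference missed 0.05 without any 1 of the 4 day 0 libraries (0.0525 to 0.0534), shScr day 10 replicate 2 (0.234) or shIL1R day 10 replicate 2 (0.124), as limma adjusted p-values. ITGB5, another partner of ITGAV, was higher on each later day. For ITGB5 the shIL1R libraries gave 11931 and 13852 normalized counts on day 0, 18315 and 17847 on day 4, and 22179.9 and 26294 on day 10. ITGB5 in shScr libraries gave 12293 and 11811 on day 0, 17987 and 15997 on day 4, and 19152 and 19608 on day 10. ITGB5 rose at day 10 over day 0 by log2 0.91 ± 0.10 (limma adjusted p = 2.39e-05) in shIL1R cells and by log2 0.69 ± 0.10 (limma adjusted p = 0.000168) in shScr cells. At day 10 both shIL1R libraries were above both shScr libraries without a call (log2 0.32 ± 0.10, limma adjusted p = 0.0821).

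ITGB8 pairs with ITGAV and takes part in the activation of latent TGF-beta. For ITGB8 the shIL1R libraries gave 14.4 and 27.5 normalized counts on day 0, 17.6 and 21.0 on day 4, and 31.2 and 98.2 on day 10. ITGB8 in shScr libraries gave 15.6 and 7.51 on day 0, 9.51 and 24.6 on day 4, and 89.7 and 100.3 on day 10. In shScr cells both day 10 libraries were above all earlier ones, while the 2 shIL1R libraries of day 10 lay far apart. The log2 change at day 10 over day 0 was 1.43 ± 0.58 (limma adjusted p = 0.0502) in shIL1R cells and 3.01 ± 0.58 (limma adjusted p = 0.000824) in shScr cells, and the difference of the changes was not called (−1.58 ± 0.81, limma adjusted p = 0.317). ITGB7, the partner of ITGA4 and ITGAE, had 4.30 to 44.8 normalized counts and rose at day 10 over day 0 in shIL1R cells (log2 2.00 ± 0.48, limma adjusted p = 0.00397) and in shScr cells (log2 1.36 ± 0.48, limma adjusted p = 0.0275). The shScr call of ITGB7 missed 0.05 without shScr day 0 replicate 1 (0.0611), shScr day 0 replicate 2 (0.127) or shScr day 10 replicate 1 (0.195), as limma adjusted p-values. ITGB4, the hemidesmosome chain, had 4.05 to 15.3 and was not called in any comparison. ITGB2, the beta chain of leukocyte integrins, had 0 to 2.40 and was not tested.

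**Figure D2:**
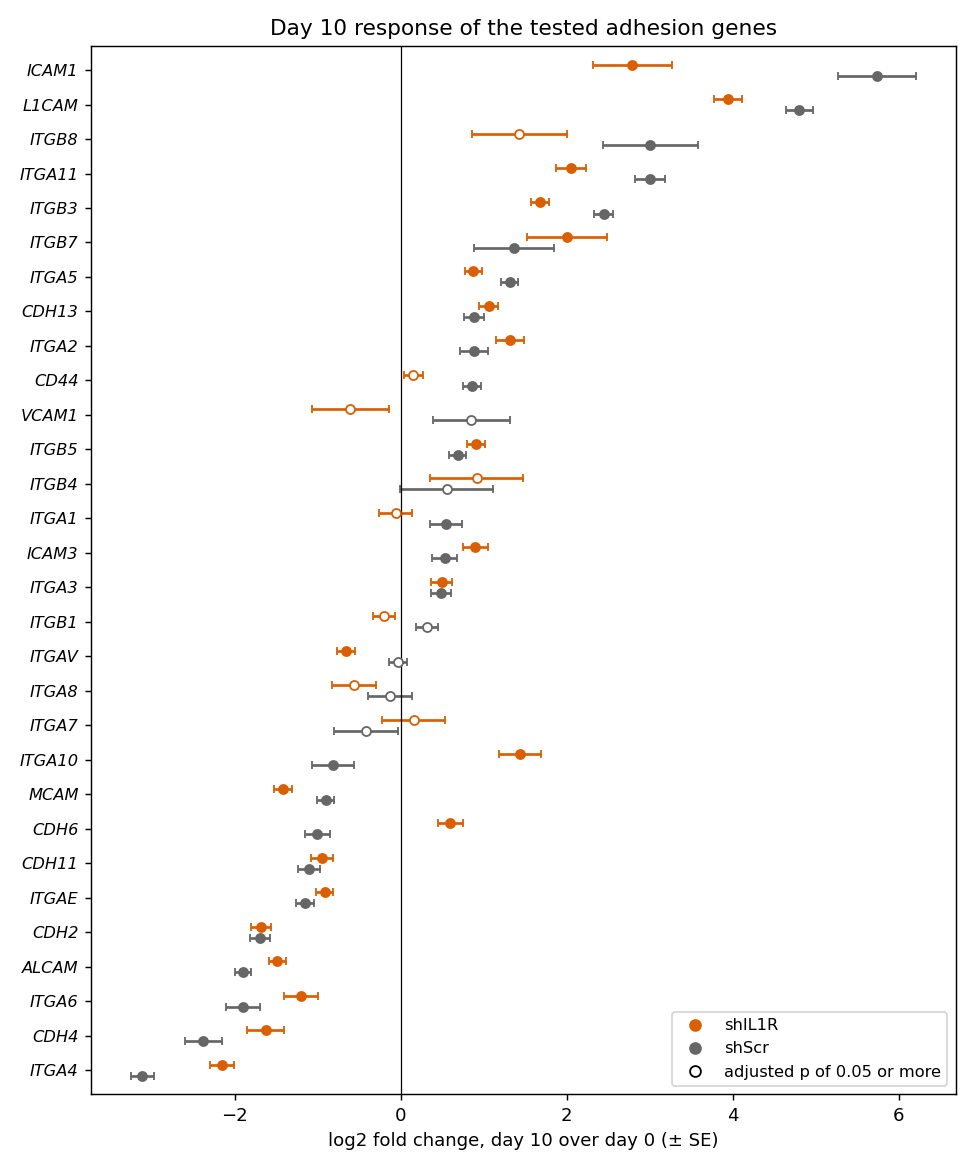
Log2 change at day 10 over day 0, with its standard error, of the 30 tested adhesion receptor genes in shIL1R cells (orange) and shScr cells (grey); open symbols have a limma adjusted p of 0.05 or more. ITGA10 and CDH6 lie on opposite sides of 0 in the 2 genotypes, at 1.44 and 0.60 in shIL1R cells and at −0.81 and −1.01 in shScr cells.

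Of the 5 cadherins tested, CDH2, CDH4 and CDH11 fell and CDH13 rose at day 10 over day 0 in both genotypes, while CDH6 rose in shIL1R cells and fell in shScr cells. CDH6, or K-cadherin, is a classical cadherin of kidney and mesenchyme. For CDH6 the shIL1R libraries gave 1094 and 919 normalized counts on day 0, 2327 and 1821 on day 4, and 1326 and 1736 on day 10. CDH6 in shScr libraries gave 1346 and 1528 on day 0, 1589 and 1561 on day 4, and 747 and 682 on day 10. The shIL1R libraries were below the shScr libraries at day 0 and above them at days 4 and 10. The change of CDH6 at day 10 over day 0 was log2 0.60 ± 0.15 (limma adjusted p = 0.0054) in shIL1R cells and log2 −1.01 ± 0.15 (limma adjusted p = 0.000146) in shScr cells. These changes differed by log2 1.60 ± 0.21 (limma adjusted p = 0.00581), and at day 10 shIL1R cells exceeded shScr cells by log2 1.09 ± 0.15 (limma adjusted p = 0.00339). No library left out ended either of those 2 calls, while the rise in shIL1R cells missed 0.05 without shIL1R day 0 replicate 2 (log2 0.47, limma adjusted p = 0.0553). CDH6 rose at day 4 over day 0 in shIL1R cells (log2 1.04 ± 0.15, limma adjusted p = 0.000411), and at day 10 it was lower than at day 4 in shScr cells (log2 −1.14 ± 0.15, limma adjusted p = 0.000177).

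CDH2, or N-cadherin, is the classical cadherin of fibroblasts and neural tissue. For CDH2 the shIL1R libraries gave 3448 and 2999.5 normalized counts on day 0, 2102 and 2309 on day 4, and 949.6 and 1053 on day 10. CDH2 in shScr libraries gave 3517 and 3275 on day 0, 1765 and 1647 on day 4, and 929.9 and 1179.8 on day 10. Both genotypes were lower on each later day and overlapped at days 0 and 10, while at day 4 both shIL1R libraries were above both shScr libraries. CDH2 fell at day 10 over day 0, with a log2 change of −1.68 ± 0.12 (limma adjusted p = 7.65e-07) in shIL1R cells and −1.70 ± 0.12 (limma adjusted p = 5.33e-07) in shScr cells, and the difference of the changes was 0.01 ± 0.17 (limma adjusted p = 0.983). At day 4 over day 0 it fell too, with a log2 change of −0.55 ± 0.12 (limma adjusted p = 0.00455) in shIL1R cells and −0.99 ± 0.12 (limma adjusted p = 0.000114) in shScr cells, and the shIL1R call missed 0.05 without shIL1R day 0 replicate 1 (0.0506). CDH11, or OB-cadherin, marks mesenchymal cells. For CDH11 the shIL1R libraries gave 2604 and 2628 normalized counts on day 0, 1652 and 1254 on day 4, and 1410.1 and 1299 on day 10. CDH11 in shScr libraries gave 2899 and 2950.0 on day 0, 1765 and 1411 on day 4, and 1307 and 1419.8 on day 10. Its libraries at days 4 and 10 were below those of day 0 in both genotypes, and the hairpins overlapped on both later days. CDH11 fell at day 10 over day 0, with a log2 change of −0.95 ± 0.13 (limma adjusted p = 0.000105) in shIL1R cells and −1.10 ± 0.13 (limma adjusted p = 2.97e-05) in shScr cells, and the level at day 10 differed by −0.01 ± 0.13 (limma adjusted p = 0.975) between them.

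CDH4, or R-cadherin, can form mixed contacts with N-cadherin. For CDH4 the shIL1R libraries gave 644 and 716 normalized counts on day 0, 497 and 797 on day 4, and 185 and 261 on day 10. CDH4 in shScr libraries gave 787 and 795 on day 0, 419 and 338 on day 4, and 137 and 167 on day 10. In shScr cells CDH4 was lower on each later day, and in shIL1R cells both day 10 libraries were below the earlier ones. CDH4 fell at day 10 over day 0, with a log2 change of −1.63 ± 0.22 (limma adjusted p = 9.06e-05) in shIL1R cells and −2.38 ± 0.22 (limma adjusted p = 4.27e-06) in shScr cells. At day 4 over day 0 the change was log2 −0.11 ± 0.22 (limma adjusted p = 0.733) in shIL1R cells and log2 −1.07 ± 0.22 (limma adjusted p = 0.00336) in shScr cells, and the difference of the day 10 changes was not called (log2 0.75 ± 0.32, limma adjusted p = 0.228). CDH13, or T-cadherin, is held in the membrane by a lipid anchor and lacks the part that binds catenins. For CDH13 the shIL1R libraries gave 5419.6 and 5844 normalized counts on day 0, 8662 and 9606 on day 4, and 11164 and 12307 on day 10. CDH13 in shScr libraries gave 5199 and 5151 on day 0, 7928 and 6504 on day 4, and 10479.9 and 8710.4 on day 10. Both shIL1R libraries were above both shScr libraries on every day, without a call between hairpins (log2 0.29 ± 0.12, limma adjusted p = 0.131 at day 10). CDH13 rose at day 10 over day 0 by log2 1.06 ± 0.12 (limma adjusted p = 1.66e-05) in shIL1R cells and by log2 0.88 ± 0.12 (limma adjusted p = 5.39e-05) in shScr cells. In shScr cells its rise at day 4 (log2 0.47 ± 0.12) missed 0.05 without shScr day 0 replicate 2 (limma adjusted p = 0.0511) or shScr day 4 replicate 1 (0.0886), and that from day 4 to day 10 (log2 0.41 ± 0.12) missed it without shScr day 4 replicate 2 (log2 0.27, 0.139) or shScr day 10 replicate 1 (0.28, 0.128). CDH10, a neural cadherin, had 0 to 2.03 normalized counts and was not tested.

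In the immunoglobulin family ICAM1, ICAM3 and L1CAM rose and ALCAM and MCAM fell at day 10 over day 0 in both genotypes. VCAM1 was not called in any comparison of the main run. ICAM1 binds leukocyte integrins such as LFA-1 and Mac-1, and its promoter holds the match shown above. For ICAM1 the shIL1R libraries gave 717 and 883 normalized counts on day 0, 1775 and 932 on day 4, and 10411 and 2921 on day 10. ICAM1 in shScr libraries gave 627 and 487 on day 0, 5128 and 3529.5 on day 4, and 26921 and 32518 on day 10. In shScr cells each later day was above the earlier one, and at days 4 and 10 both shIL1R libraries were below both shScr libraries. The 2 shIL1R libraries of day 10 had the widest relative gap of the 6 ICAM1 groups. ICAM1 at day 10 over day 0 rose by log2 2.79 ± 0.47 (limma adjusted p = 0.000403) in shIL1R cells and by log2 5.74 ± 0.47 (limma adjusted p = 1.5e-06) in shScr cells. At day 4 over day 0 it changed by log2 0.69 ± 0.47 (limma adjusted p = 0.268) in shIL1R cells and by log2 2.94 ± 0.47 (limma adjusted p = 0.000659) in shScr cells. The level difference between shIL1R and shScr cells was log2 −1.72 ± 0.47 (limma adjusted p = 0.116) at day 4 and log2 −2.42 ± 0.47 (limma adjusted p = 0.013) at day 10, and the difference of the day 10 changes was log2 −2.95 ± 0.67 (limma adjusted p = 0.0474). The day 10 level difference was −3.34 without shIL1R day 10 replicate 1, −1.51 without shIL1R day 10 replicate 2 and −2.29 without shScr day 10 replicate 2, where its limma adjusted p was 0.123. The rise in shIL1R cells was 1.88 without shIL1R day 10 replicate 1 and 3.71 without shIL1R day 10 replicate 2. The difference of the changes was −3.87 and −2.03 without those libraries, and it missed 0.05 without any 1 of the other 10 libraries (0.0509 to 0.193). That call was also lost by edgeR on the recovered reads (log2 −2.68, edgeR adjusted p = 0.0642), without the filter on low values (limma 0.0828) and with the compared groups alone (limma 0.0779).

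VCAM1, the ligand of ITGA4 paired with ITGB1, was low in these cells. For VCAM1 the shIL1R libraries gave 54.8 and 55.1 normalized counts on day 0, 43.0 and 35.4 on day 4, and 18.0 and 70.0 on day 10. VCAM1 in shScr libraries gave 22.0 and 26.7 on day 0, 19.0 and 19.9 on day 4, and 43.7 and 45.6 on day 10. Both shIL1R libraries were above both shScr libraries at days 0 and 4, and at day 10 the 2 shIL1R libraries were the lowest and the highest of the 4. The change of VCAM1 at day 10 over day 0 was log2 −0.61 ± 0.47 (limma adjusted p = 0.279) in shIL1R cells and log2 0.85 ± 0.47 (limma adjusted p = 0.131) in shScr cells, and the level at day 10 differed by log2 −0.31 ± 0.47 (limma adjusted p = 0.706). The difference of the VCAM1 changes was log2 −1.46 ± 0.66 (limma adjusted p = 0.257), and −2.41 to −0.51 over the alternative runs. Some alternative runs gave an adjusted p below 0.05 for the shScr change, the day 10 level or the difference of the changes of VCAM1. L1CAM is a receptor best known from neurons, where it binds itself and integrins. For L1CAM the shIL1R libraries gave 158 and 175 normalized counts on day 0, 920.2 and 695 on day 4, and 2388 and 2775 on day 10. L1CAM in shScr libraries gave 159 and 169 on day 0, 775 and 1000.5 on day 4, and 4168 and 5066 on day 10. Each later day was above the earlier one in both genotypes, the hairpins overlapped at days 0 and 4, and at day 10 both shIL1R libraries were below both shScr libraries. L1CAM rose at day 10 over day 0 by log2 3.95 ± 0.16 (limma adjusted p = 3.69e-08) in shIL1R cells and by log2 4.80 ± 0.16 (limma adjusted p = 6.94e-09) in shScr cells. At day 10 the hairpins differed by log2 −0.84 ± 0.16 (limma adjusted p = 0.0132), which missed 0.05 without shScr day 10 replicate 2 (log2 −0.69, limma adjusted p = 0.145), and the difference of the changes was not called (−0.86 ± 0.23, limma adjusted p = 0.0805).

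ALCAM is the ligand of the lymphocyte receptor CD6. For ALCAM the shIL1R libraries gave 14660.2 and 15858 normalized counts on day 0, 10928 and 10867 on day 4, and 5472 and 5405 on day 10. ALCAM in shScr libraries gave 16139 and 17146 on day 0, 11583 and 9771 on day 4, and 4150.2 and 4798 on day 10. Each later day was below the earlier one in both genotypes, and at day 10 both shIL1R libraries were above both shScr libraries without a call (log2 0.29 ± 0.10, limma adjusted p = 0.0953). ALCAM fell at day 10 over day 0, with a log2 change of −1.49 ± 0.10 (limma adjusted p = 4.97e-07) in shIL1R cells and −1.90 ± 0.10 (limma adjusted p = 6.13e-08) in shScr cells. MCAM, or CD146, marks endothelium, pericytes and some stromal cells. For MCAM the shIL1R libraries gave 5287 and 5844 normalized counts on day 0, 2563 and 2406 on day 4, and 2235 and 1928 on day 10. MCAM in shScr libraries gave 5169 and 4686 on day 0, 2641 and 2592 on day 4, and 2404 and 2871 on day 10. Its day 4 and day 10 libraries were below those of day 0 in both genotypes. MCAM fell at day 10 over day 0, with a log2 change of −1.42 ± 0.11 (limma adjusted p = 1.1e-06) in shIL1R cells and −0.91 ± 0.11 (limma adjusted p = 2.45e-05) in shScr cells, and the level at day 10 was not called apart (−0.34 ± 0.11, limma adjusted p = 0.0713). ICAM3, which like ICAM1 binds LFA-1, ranged between 190.2 and 393 normalized counts. It rose at day 10 over day 0 by log2 0.90 ± 0.15 (limma adjusted p = 0.000362) in shIL1R cells and by log2 0.53 ± 0.15 (limma adjusted p = 0.0093) in shScr cells, where the call missed 0.05 without shScr day 0 replicate 1 (0.0748) or shScr day 10 replicate 1 (0.0621). ICAM2 (0 to 3.04 normalized counts) and NCAM1 (0 to 3.60) were not tested.

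CD44, the hyaluronan receptor, differed between the hairpins in its course. For CD44 the shIL1R libraries gave 47564 and 54071 normalized counts on day 0, 41638 and 42247 on day 4, and 60539.8 and 52517 on day 10. CD44 in shScr libraries gave 38002 and 38788 on day 0, 41273 and 40725 on day 4, and 64230.4 and 75623 on day 10. At days 0 and 4 both shIL1R libraries were above both shScr libraries, and at day 10 they were below them. CD44 rose at day 10 over day 0 in shScr cells (log2 0.86 ± 0.11, limma adjusted p = 4.57e-05), where the change was log2 0.09 ± 0.11 at day 4 over day 0, not called, and log2 0.77 ± 0.11 at day 10 over day 4, called. In shIL1R cells the change at day 10 was log2 0.15 ± 0.11 (limma adjusted p = 0.252), and the difference of the 2 changes was log2 −0.71 ± 0.16 (limma adjusted p = 0.0429). The levels were not called apart at day 0 (log2 0.40 ± 0.11, limma adjusted p = 0.289) or at day 10 (log2 −0.31 ± 0.11, limma adjusted p = 0.105). The difference of the changes missed 0.05 without any 1 of 10 libraries, all but replicate 1 of shIL1R day 10 and of shScr day 10 (limma adjusted p from 0.0627 to 0.207). The replicate block gave CD44 0.056.

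**Figure D3:**
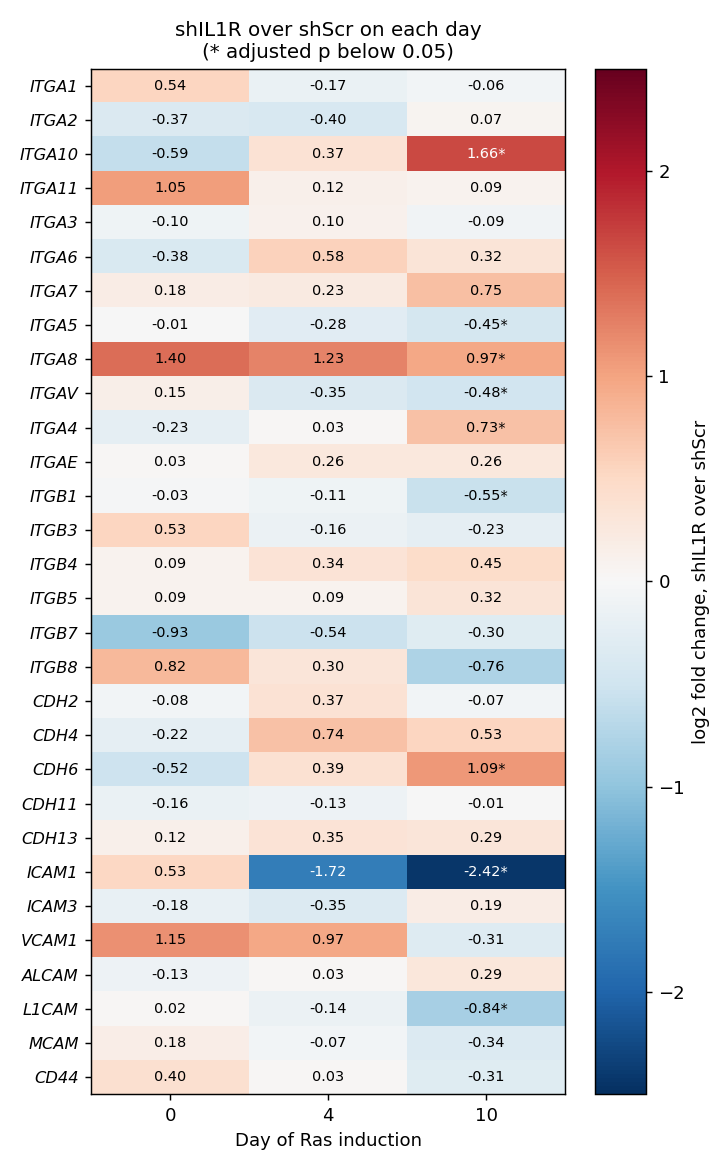
Log2 ratio of shIL1R over shScr cells at days 0, 4 and 10 for the 30 tested adhesion receptor genes, as a colour scale, with * where limma's adjusted p was below 0.05. All stars are at day 10, for 4 genes that were higher in shIL1R cells and 5 that were lower, with ITGA10 at 1.66 and ICAM1 at −2.42.

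Markers of other cell types summed to less than those of fibroblasts, but they were not all absent and did not all stay level. In single libraries the 4 neural markers summed to between 3817 and 7059 normalized counts. The 4 smooth muscle markers summed to between 2260 and 3908. Of 5 endothelial markers tested, KDR, TIE1 and VWF rose and 1 fell at day 10 over day 0 in each genotype, and the 7 listed summed to 2036 and 2179 normalized counts in shIL1R day 10, 1574 and 1896 in shScr day 10, 2529 and 3282 in shIL1R day 0 and 1685 and 1825 in shScr day 0. The 7 leukocyte markers summed to 5818 and 8571 in shIL1R day 10 and to 7500 and 9116 in shScr day 10, against 2941 and 2943 in shIL1R day 0 and 3013 and 3285 in shScr day 0. Of 4 leukocyte markers tested, 2 rose and 1 fell at day 10 over day 0 in shIL1R cells and 3 rose and 1 fell in shScr cells, while PTPRC and CD53 stayed at or near 0. The 7 epithelial markers summed to 2879 and 3134 in shIL1R day 10 and to 2136 and 2178 in shScr day 10, and KRT8 differed between them by 0.87 ± 0.14 (log2, limma adjusted p = 0.00641). Of 3 epithelial markers tested, 2 rose and 0 fell at day 10 over day 0 in shIL1R cells and 0 rose and 1 fell in shScr cells. Of 4 smooth muscle markers, 0 rose and 1 fell in shIL1R cells and 1 rose and 1 fell in shScr cells, and of 3 neural markers 1 rose and 0 fell in shIL1R cells and 1 rose and 1 fell in shScr cells. Beside these marker counts at day 10 over day 0, 30.0% of all tested genes were higher and 30.3% lower in shIL1R cells. In shScr cells 32.5% were higher and 31.3% lower. The part of these markers in the changes of ICAM1, MCAM or the cadherins was not tested. The strand setting of the counting is not given, although the libraries were strand-specific per the labels. In the GENCODE annotation 28 of the 35 members overlap a gene on the opposite strand, and 9 of the 35 overlap a protein-coding gene on either strand, so the counts of those members are uncertain to that extent.

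Genes that work with these receptors were counted from lists of general knowledge. Of 24 adaptors of adhesion complexes tested, which link integrins to actin, 9 rose and 8 fell at day 10 over day 0 in shIL1R cells and 8 rose and 8 fell in shScr cells. In shScr cells the adaptors with the largest changes were TNS1 (log2 1.81), LIMS1 (1.39), ACTN4 (−1.30) and LIMS2 (−1.22). Between hairpins at day 10, 5 adaptors were higher and 1 lower in shIL1R cells, against 4.37% and 4.85% of all genes. For the difference of the changes limma called 0 adaptors, against 0.876% of all genes higher and 1.54% lower. At an unadjusted p below 0.05 there were 8 adaptors, without a share of all genes at that p to set beside them. Of 6 cadherin partners tested, 2 rose and 2 fell in shIL1R cells and 2 rose and 3 fell in shScr cells, among them JUP (log2 2.50, plakoglobin), ARVCF (1.45), PKP4 (−0.97) and CTNNB1 (−0.50, beta-catenin) in shScr cells. Limma called 0 cadherin partners between hairpins at day 10, with 0 at an unadjusted p below 0.05.

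Of 22 integrin ligands tested, 12 rose and 5 fell at day 10 over day 0 in shIL1R cells and 11 rose and 5 fell in shScr cells. The laminin chain LAMA4 (log2 2.49) rose and LAMA2 (−2.00) fell in shIL1R cells, and LAMA4 (2.66) and LAMB3 (2.17) rose and LAMA2 (−2.27) fell in shScr cells. At day 10 LAMA3 (log2 1.26) and EDIL3 (1.16), a ligand of ITGAV, were higher and LAMB3 (−1.01) lower in shIL1R cells than in shScr cells. Of 7 other cadherins tested out of 19, 1 rose and 2 fell in shIL1R cells and 2 rose and 3 fell in shScr cells, with FAT4 (log2 −2.05), CDH15 (1.89), CDH24 (−1.21) and FAT1 (−1.16) in shScr cells. CDH24 was higher in shIL1R cells at day 10 (log2 0.89), and its change also differed (0.94). Of 27 other adhesion receptors tested, 11 rose and 10 fell in shIL1R cells and 12 rose and 11 fell in shScr cells, led in shScr cells by the junction protein F11R (log2 3.63) and by CADM1 (2.11), CHL1 (−1.64) and CD9 (1.63). BCAM, a laminin receptor, was higher in shIL1R cells at day 10 (log2 0.97) and its change differed by 0.93, that of PVR by −1.05. DDR2, a collagen receptor kinase, was also higher at day 10 (log2 0.42). The counts at day 10 over day 0 stand beside 30.0% higher and 30.3% lower of all genes in shIL1R cells, and 32.5% and 31.3% in shScr cells. Between the hairpins at day 10, 4.37% of all genes were higher and 4.85% lower. For the difference of the changes it was 0.876% and 1.54%.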

How the data were processed

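The deposited table gives, for each gene and library, a signal of normalized counts. Per the submitters' processing notes, the authors aligned reads to hg19 with TopHat, counted them with HTSeq and normalized them with DESeq2, without versions; annotation and strand setting are not given in the sources used here. Dividing each value by what 1 read is worth in its library (0.834 to 1.20 normalized counts) gave whole reads for 100% of values, within 0.001 reads. The 2 libraries of each group were treated as replicates.

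Genes with 10 or more normalized counts in 2 or more libraries (13924 of 27106) entered 1 linear model in limma (version 3.58.1, under R 4.3.3) that estimated 6 group means from 12 libraries on the scale log2(value + 1). Variances were moderated with a trend on mean level, which gave 6 residual plus 4.98 prior degrees of freedom. Tests were two-sided, and Benjamini-Hochberg adjustment covered all tested genes in each of 9 comparisons. The limma step was tried on simulated data for shScr day 10 over day 0 alone. It recovered 73 of 100 genes changed by log2 1 and 89 of 100 changed by log2 2, with 6 false calls. Members and lists were chosen with earlier results of these data known.

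Per-library values are given for members with a group mean of at least 50 that were called in a comparison (up to 10 in each direction in shScr cells at day 10 over day 0, and all called between hairpins), and for ICAM1, VCAM1, ITGB1, ITGB3, CD44, CDH2 and CDH11 in any case, 24 in all; from the other lists, up to 4 called genes are named. Results were recomputed with pseudocounts 0.5 and 5, without the filter and with a minimum of 50, and with TMM rescaling, quantile normalization, a replicate block, the compared groups alone, each library left out, and on the recovered reads with edgeR (4.0.16) or DESeq2 (1.42.0). Promoters are those of RefSeq, GRCh38.p14, and overlaps come from GENCODE v29. One result on a gene outside the members is not reported here.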

Additional observations from a re-analysis of the deposited data

Results flagged for a closer look

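The change from day 0 to day 10 was compared between the hairpins with 1 test per gene, and 6 of the 30 tested adhesion receptor genes passed. These were 3 in each direction, against 0.876% of all tested genes with a positive difference and 1.54% with a negative one. The log2 change in shIL1R cells minus that in shScr cells was 2.25 for ITGA10, 1.60 for CDH6 and 0.96 for ITGA4, and it was −2.95 for ICAM1, −0.77 for ITGB3 and −0.71 for CD44. ITGA10 and CDH6 moved in opposite directions in the 2 genotypes (1.44 in shIL1R cells and −0.81 in shScr cells for ITGA10, and 0.60 in shIL1R cells and −1.01 in shScr cells for CDH6). ITGA4, ICAM1 and ITGB3 moved in the same direction in both genotypes by different amounts, and for CD44 the change was called in shScr cells alone. For ITGB3 and CD44 the levels were not called apart between the hairpins on any day. CDH6 passed in every alternative run, and each of the other 5 missed 0.05 without some library. The ICAM1 call was also lost by edgeR on the recovered reads (adjusted p = 0.0642), without the filter on low values (0.0828) and with the compared groups alone (0.0779). Differences at day 0, none of them called by limma (DESeq2 called 4 members there), enter each of these values: the log2 difference of shIL1R over shScr cells at day 0 was −0.59 for ITGA10, −0.52 for CDH6, 0.53 for ICAM1, 0.53 for ITGB3, 0.40 for CD44 and −0.23 for ITGA4.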

How the results depend on the processing

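The total counts of members called over the days within a genotype stayed within 1.5 times under every alternative run, while the lower members in shIL1R cells at day 4 over day 0 were 4 without shIL1R day 0 replicate 2 in place of 7. Between the hairpins they moved. At day 0 DESeq2 called 4 and quantile normalization 1 in place of 0, with 0 to 2 when 1 library was left out. At day 4 DESeq2 called 2 in place of 0, with 0 to 3 when 1 library was left out. At day 10 the compared groups alone called 0 in place of 9, and leaving out a library gave 1 to 14. For the difference of the day 10 changes DESeq2 called 11, the compared groups alone 3 and no filter on low values 2 in place of 6, and leaving out a library gave 1 to 9. Of all genes DESeq2 called 138 in place of 9 at day 0, 476 in place of 39 at day 4 and 802 in place of 336 for the difference of the changes. A fit of the compared groups alone has fewer libraries for the spread, but its counts did not drop in every comparison. At day 10 over day 0 it called 25 members in place of 24 in shScr cells (9475 of all genes in place of 8879). In shIL1R cells it called 22 members as before (6728 of all genes in place of 8396). Between the hairpins at day 10 it called 73 of all genes in place of 1283, and the reason was not tested. ITGB1 at day 10 over day 0 in shScr cells, not called at 0.32, was −0.50 under quantile normalization, and the cause was not tested. Of 3617 values of single members under an alternative, 138 lost the call, 37 gained one and 1 changed sign with a call in either run. The other 3441 kept their call or stayed uncalled. Uncalled values that changed sign are counted among these 3441. Of 114 calls of the 30 tested members 82 held under every alternative that gave a value. Whether the replicate numbers pair the samples is not settled by the correlations of deviations, of which 4 of 15 were over 0.1 (−0.102 to 0.231). Among the shIL1R groups they were 0.231 (days 0 and 4), 0.203 (days 4 and 10) and 0.0535 (days 0 and 10). Among the shScr groups they were −0.0453, −0.102 and 0.125 in the same order. The replicate block called 8 members at day 10 between hairpins, 5 for the difference of the changes and 24 in shScr cells at day 10 over day 0. The 5 members under the filter of 10 normalized counts were fitted only without the filter, and 1 read is worth about 1 normalized count at this depth.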
